A study of Mus musculus with 6 samples.

Results

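The lysosomal genes described here are 41 genes chosen by name: cathepsins and other proteases, glycosidases, sulfatases, lipid hydrolases with their activator proteins, proteins of the lysosomal membrane, and the transcription factors Tfeb and Tfe3 with the progranulin gene Grn. All 41 were found among the 17550 genes of the deposited expression table. They were measured in mouse kidney by sequencing of poly(A)-selected RNA, in 3 libraries labelled KC-Tie2 and 3 labelled Control. KC-Tie2 mice, a psoriasis model, overexpress the receptor tyrosine kinase Tie2 in skin keratinocytes, and all kidneys were perfused with saline before RNA was taken. The labels used here state no age, sex, strain, promoter of the transgene or genotype of the Control mice beyond that word, and the deposited comparison heads the same group WT. They number the samples without tying each to its own animal, so the p-values describe the spread between samples, which may be partly technical.

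Lysosomes are acidic organelles in which hydrolases break down proteins, glycans, sulfated sugars and lipids that arrive by endocytosis and autophagy. Most soluble lysosomal enzymes are carried there by the mannose 6-phosphate tag, and many are made as inactive precursors that are cut in the lysosome. Proximal tubule cells of the kidney take up filtered proteins and are rich in lysosomes, as are macrophages. TFEB and TFE3 are transcription factors that bind a short E-box element, called CLEAR, in the promoters of many lysosomal genes.

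Because the genes of the TFEB network share that element, promoters of the genes that differed between genotypes are shown here. RefSeq promoter sequences (build GRCm38.p6, 250 bases before to 50 bases after the annotated start) matched 37 of the 41 genes, and Ctsb, Ctsh, Galns and Asah1 had no entry. The E-box CACGTG, which reads the same on both strands, was found for 12 of the 37 genes (32.4%) and for 8.09% of all 27025 genes of the promoter table. Its extension TCACGTG, searched on both strands and contained in the counts of CACGTG, was found for 10 (27%) against 4.29% of all genes. The 8 inner letters of the CLEAR element, TCACGTGA, were found for 4 genes (10.8%), Ctsa, Ctsd, Gla and Mcoln1, against 1.12% of all genes. These shares of all genes cover the whole promoter table, including genes not tested in these kidneys. Enrichment of the motifs over the genes tested was therefore not tested. The sequences below are promoters of the 3 genes that rose in KC-Tie2 kidneys and of Ctsd, which holds the CLEAR letters and was not called. For Lgmn, which has more than 1 annotated start, the window shown is the one that held a match. Capitals mark CACGTG with any flanking T or A of the searched motif.
Lgmn, chr12:102439043-102439342, minus strand: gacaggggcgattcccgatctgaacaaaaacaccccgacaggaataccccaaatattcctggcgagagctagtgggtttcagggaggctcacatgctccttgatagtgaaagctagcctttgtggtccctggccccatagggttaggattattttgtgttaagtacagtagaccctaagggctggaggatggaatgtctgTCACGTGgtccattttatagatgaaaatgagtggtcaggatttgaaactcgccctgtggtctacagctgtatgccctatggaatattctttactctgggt
Arsa, chr15:89477375-89477674, minus strand: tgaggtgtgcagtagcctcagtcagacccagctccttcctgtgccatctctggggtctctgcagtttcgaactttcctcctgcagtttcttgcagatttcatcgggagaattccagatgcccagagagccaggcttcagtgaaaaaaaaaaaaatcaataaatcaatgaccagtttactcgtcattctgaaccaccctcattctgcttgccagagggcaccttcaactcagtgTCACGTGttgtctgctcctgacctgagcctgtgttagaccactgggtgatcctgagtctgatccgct
Ctsc, chr7:88277835-88278134, plus strand: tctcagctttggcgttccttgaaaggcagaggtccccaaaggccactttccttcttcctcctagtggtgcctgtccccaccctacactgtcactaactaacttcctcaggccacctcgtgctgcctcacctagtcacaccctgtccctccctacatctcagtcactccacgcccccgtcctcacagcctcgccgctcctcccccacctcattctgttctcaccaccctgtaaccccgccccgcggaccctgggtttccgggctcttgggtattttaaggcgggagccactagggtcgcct
Ctsd, chr7:142387778-142388077, minus strand: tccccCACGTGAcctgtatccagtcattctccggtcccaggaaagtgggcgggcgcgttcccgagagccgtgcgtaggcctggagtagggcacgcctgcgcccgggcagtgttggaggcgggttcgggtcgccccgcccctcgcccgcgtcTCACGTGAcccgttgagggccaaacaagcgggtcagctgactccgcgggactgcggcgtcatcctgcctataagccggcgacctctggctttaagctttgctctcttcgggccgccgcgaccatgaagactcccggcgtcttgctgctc

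The CACGTG of the match in the Arsa window begins 16 bases before the start, and that in the Lgmn window 49 bases before it. Lgmn has another annotated start whose window (chr12:102439679-102439978) held no match. On the minus strand that start lies upstream of the one shown, and which start is used in these kidneys was not tested. The Ctsc window held none, and that says nothing about TFEB binding. The 10 genes with TCACGTG had a median log2 fold change of 0.11, against 0.04 in the 27 genes without it. Of the 10, 8 lay above 0, as did 65.9% of the 41 genes and 50.3% of all genes tested. Lgmn and Arsa rose, 2 of the 10, against 0.855% of all genes tested. The 12 genes with CACGTG, which include these 10, had a median of 0.07, against 0.04 in the 25 without it. All 4 genes with TCACGTGA lay above 0, with a median of 0.19 against 0.04 in the other 33, and none rose. Whether the motifs bear on the fold changes was not tested.

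Normalized counts summed to 23647811, 24604088 and 25155944 in KC-Tie2 replicates 1 to 3 and to 25378411, 24288853 and 25495455 in Control replicates 1 to 3. The spacing of low values put the depth, in units of 1e+06 estimated counts, at about 21.3 to 29.5 in KC-Tie2 and 18.8 to 29.4 in Control libraries. Markers of the kidney tubule were abundant in every library, as the label states: the endocytic receptor Lrp2 averaged 142805 ± 14087 in KC-Tie2 and 163256 ± 5607 in Control kidneys (SD, n = 3 each), and Umod of the thick ascending limb 70783 ± 9395 and 62710 ± 2185. Across all genes tested, 150 rose and 147 fell at a limma adjusted p under 0.05, which are 0.855% and 0.838% of 17539.

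Of the 41 lysosomal genes, 3 rose in KC-Tie2 kidneys (7.32%, against 0.855% of all genes tested) and none fell (background 0.838%), all 41 having passed the limit on low values. The risen genes were Lgmn, Arsa and Ctsc. At an unadjusted p under 0.05, 8 were higher and 1 lower, where 7.57% and 7.77% of all genes were. The median log2 fold change of the 41 was 0.05, against 0.001 over all genes tested. Log2 fold changes lay above 0 at 27 of the 41 (65.9%, against 50.3% of all genes) and ranged from -0.40 for Galns to 0.68 for Lgmn. Every KC-Tie2 library lay above every Control library at 11 of the 41 (26.8%, background 9.96%), and below at 1, Galns (background 10%). Here and below, log2 fold changes are KC-Tie2 minus Control on the log2(normalized count + 1) scale, given ± SE, and genes "rose" or "fell" only at a limma adjusted p under 0.05 over all genes.

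**Figure D1:**
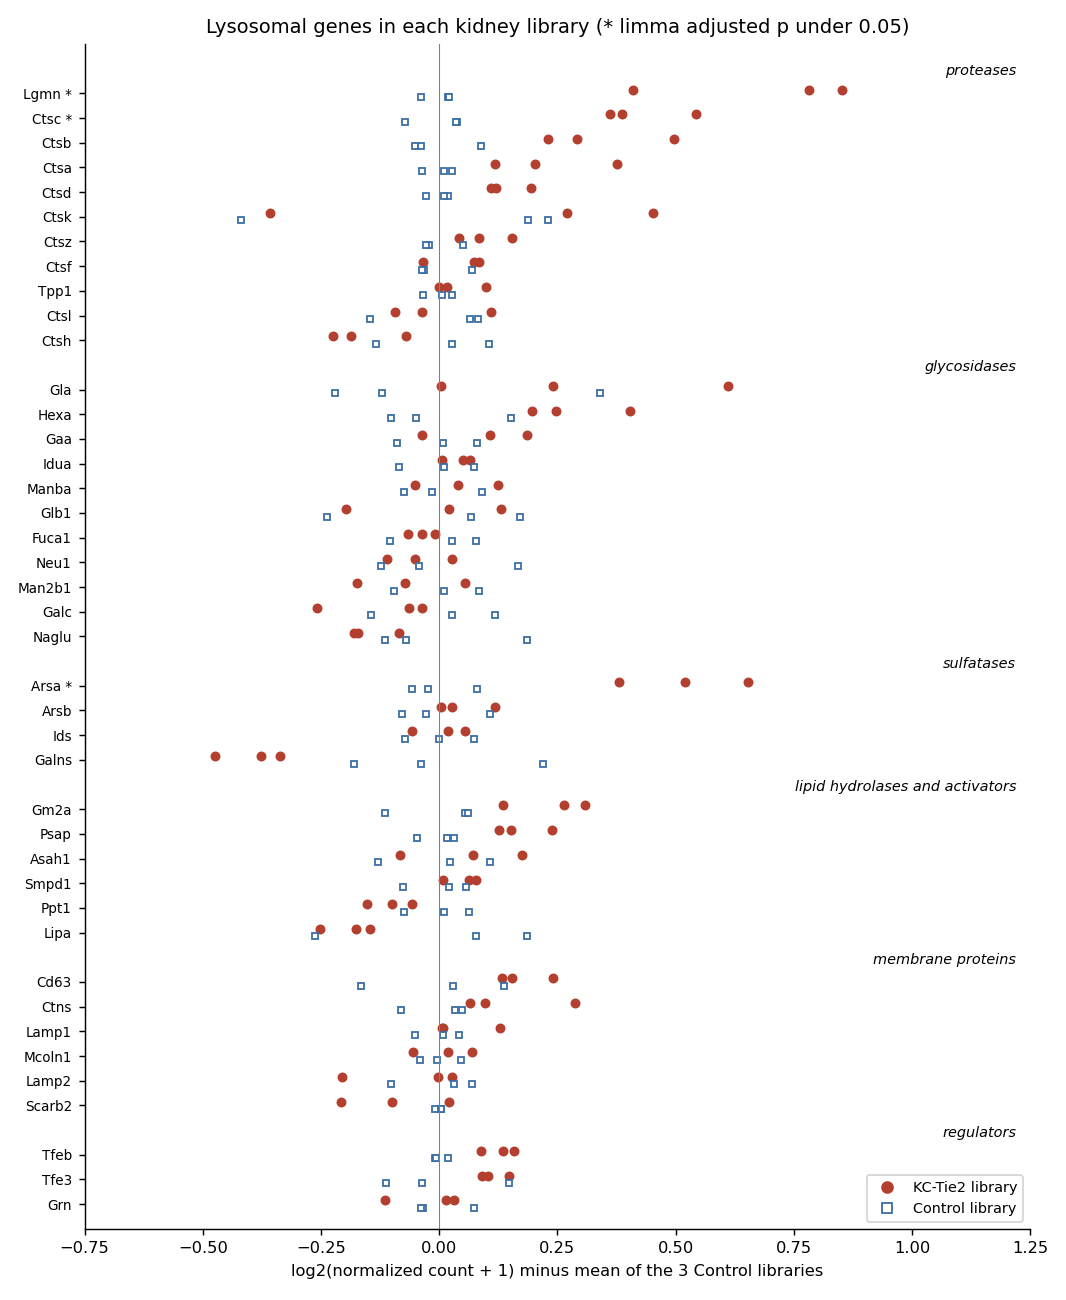
Each row is a lysosomal gene; red circles are the 3 KC-Tie2 libraries and open blue squares the 3 Control libraries, as log2(normalized count + 1) minus the Control mean. The KC-Tie2 points of Lgmn, Ctsc and Arsa lie well to the right of all their Control points, those of Galns to the left, and at 29 of the 41 genes the groups overlap.

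Among the 11 proteases, 2 rose (18.2%, against 0.855% of all genes tested) and none fell. Of the 11, 9 lay above 0 (81.8%, against 50.3% of all genes), with a median log2 fold change of 0.12. Lgmn encodes legumain, a cysteine protease that cuts after asparagine and processes several cathepsins into their mature forms in mouse kidney. Lgmn (ENSMUSG00000021190, mm39 chromosome 12, 102360343 to 102406072, minus strand) had 15868, 16661 and 12263 normalized counts in KC-Tie2 replicates 1 to 3, against 9343, 8987 and 9359 in Control replicates 1 to 3. All 3 KC-Tie2 values were above all Control values, with replicate 3 the lowest of them, and the Control values lay close together. Lgmn rose 1.6-fold (log2 fold change 0.68 ± 0.10, limma adjusted p = 0.0128). The call was lost without KC-Tie2 replicate 1 (limma adjusted p = 0.0678), KC-Tie2 replicate 2 (0.067), Control replicate 1 (0.0736) or Control replicate 3 (0.0649), while the fold change stayed between 0.60 and 0.82 over all alternatives. Leaving out any of these libraries also cut the calls over all genes tested, as the closing section gives. Whether such losses, here and below, are particular to a gene was not tested.

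Ctsc encodes cathepsin C, the dipeptidyl peptidase that activates the serine proteases of neutrophils and other leukocytes. Ctsc (ENSMUSG00000030560, mm39 chromosome 7, 87927293 to 87960096, plus strand) had 478.5, 533.5 and 470.0 normalized counts in the KC-Tie2 libraries and 347.7, 375.8 and 374.8 in the Control libraries. The groups did not overlap. Ctsc rose 1.35-fold (log2 fold change 0.43 ± 0.09, limma adjusted p = 0.0437). Its call was lost without KC-Tie2 replicate 1 (limma adjusted p = 0.121), KC-Tie2 replicate 2 (0.229), Control replicate 1 (0.176) or Control replicate 3 (0.128), and with eBayes without robust (0.0524). The values of leukocyte markers, which did not all go one way, are given further on.

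Ctsb encodes cathepsin B, an abundant cysteine protease of the papain family. Ctsb had 10844, 12509 and 10395 normalized counts in the KC-Tie2 libraries and 9426, 8557 and 8628 in the Control libraries. The groups did not overlap, yet the difference did not pass the test over all genes (log2 fold change 0.34 ± 0.09, limma adjusted p = 0.0748). It passed without KC-Tie2 replicate 3 (limma adjusted p = 0.0379) and with quantile normalization (0.024), library weights (0.0445) and voom (0.0437), within a range up to 0.32 over all alternatives. The Ctsb span overlaps Fdft1 on the other strand (376.5 to 663.5 normalized counts per library), and whether reads were counted by strand is not stated in the labels or headers.

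Ctsa and Ctsd were likewise higher in every KC-Tie2 library without passing the test. Ctsa, a serine carboxypeptidase that protects beta-galactosidase and neuraminidase in a complex, had 5417, 6103 and 5104 normalized counts in KC-Tie2 and 4792, 4588 and 4736 in Control libraries (log2 fold change 0.23 ± 0.08, limma adjusted p = 0.17). Ctsd, the main aspartic protease of lysosomes, had 10616, 11252 and 10696 in KC-Tie2 and 9967, 9907 and 9653 in Control libraries (0.14 ± 0.07, limma adjusted p = 0.355). Both estimates were smaller than that of Lgmn.

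The other proteases had overlapping groups. Ctsl, the cysteine protease cathepsin L, averaged 5635 ± 414 in KC-Tie2 and 5666 ± 486 in Control kidneys (SD, n = 3 each), a log2 fold change of -0.01 with a 95% interval of -0.19 to 0.18. Ctsh, an aminopeptidase, averaged 2323 ± 132 and 2599 ± 216 (log2 fold change -0.16, interval -0.33 to 0.01). Ctsz, a carboxypeptidase, Ctsf, a papain-family protease, and Tpp1, a tripeptidyl peptidase, had log2 fold changes of 0.09, 0.04 and 0.04. Ctsk, best known from osteoclasts, was the lowest of the 41 genes in normalized counts and per kilobase, with 57.7, 32.5 and 50.8 normalized counts in KC-Tie2 and 49.4, 47.9 and 31.1 in Control libraries, and its interval of -0.51 to 0.76 leaves its direction undetermined.

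**Figure D2:**
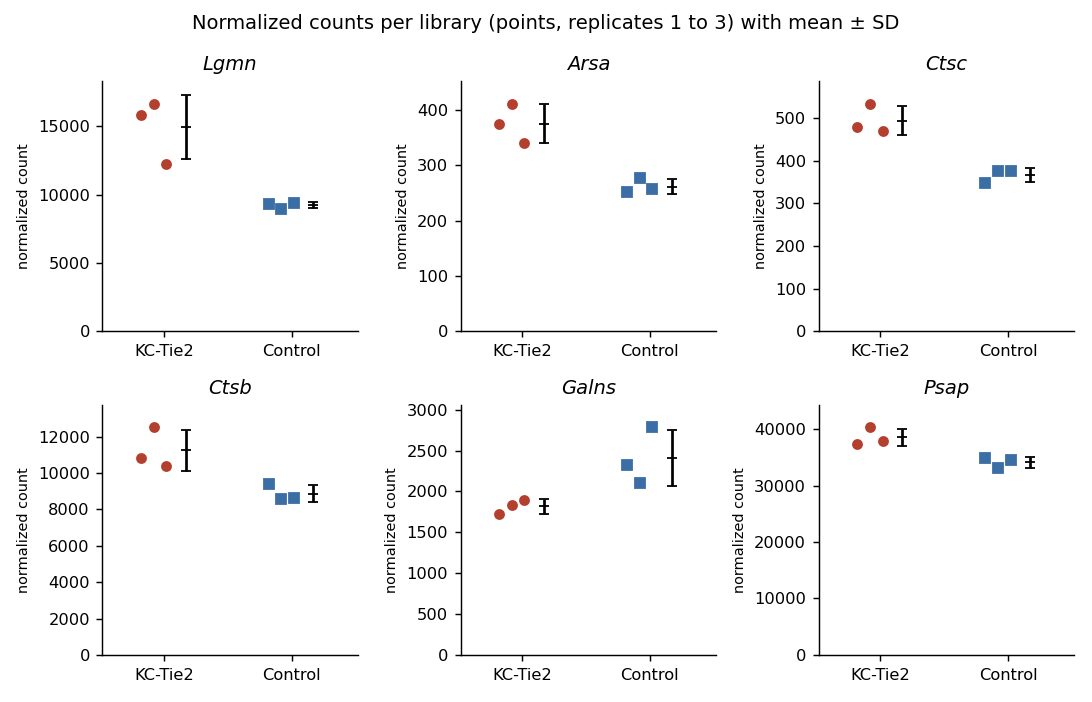
Normalized counts (vertical axes from 0) of Lgmn, Arsa, Ctsc, Ctsb, Galns and Psap in the 3 KC-Tie2 (red, left) and 3 Control (blue, right) libraries, with mean ± SD. KC-Tie2 values lie above all Control values for each gene but Galns, where they lie below.

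As a sum over the 11 genes, protease transcripts had 58868, 64040 and 55041 normalized counts in KC-Tie2 and 50650, 47723 and 49473 in Control libraries. Without Lgmn the sums were 42999.6, 47379 and 42779 in KC-Tie2 and 41307, 38736 and 40114 in Control libraries, still without overlap. Lgmn made up 8.38%, 8.12% and 6.46% of the counts of all 41 genes in KC-Tie2 libraries, against 5.08%, 5.26% and 5.07% in Control libraries.

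None of the 11 glycosidases was called, and 5 lay above (45.5%, against 50.3% of all genes tested) and 6 below 0 (median log2 fold change -0.01). By limma, 1 of them had an unadjusted p under 0.05 (9.09% higher, against 7.57% of all genes tested). It was Hexa, the alpha subunit of beta-hexosaminidase, which removes hexosamines from the ganglioside GM2: 800.5, 717.7 and 692.3 normalized counts in KC-Tie2 and 671.3, 563.2 and 584.5 in Control libraries. These groups did not overlap (log2 fold change 0.28 ± 0.09, limma adjusted p = 0.161). Hexa was the only glycosidase with every KC-Tie2 library above every Control library (9.09%, background 9.96%).

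The partners of cathepsin A in its complex had overlapping groups; whether they differ from Ctsa in fold change was not tested. Glb1, beta-galactosidase, had 2502, 2908 and 3139 normalized counts in KC-Tie2 and 3002, 2432 and 3229 in Control libraries (log2 fold change -0.01, 95% interval -0.28 to 0.25). Its span holds Tmppe on the same strand, so the split of reads between them is uncertain. Neu1, the sialidase, averaged 7526 ± 357 in KC-Tie2 and 7787 ± 823 in Control kidneys (log2 fold change -0.04, interval -0.23 to 0.14).

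The enzymes of the glycogen, mannose, fucose and galactosylceramide pathways overlapped between genotypes too. Gaa, acid alpha-glucosidase, had a log2 fold change of 0.08 (interval -0.08 to 0.25), Manba and Man2b1, the beta- and alpha-mannosidases, 0.04 and -0.06, Fuca1, a fucosidase, -0.04, and Galc, galactosylceramidase, -0.12 (-0.31 to 0.07). Gla, alpha-galactosidase A, was low, with 125.5, 162.5 and 106.2 normalized counts in KC-Tie2 and 134.5, 90.8 and 97.4 in Control libraries, and its interval was wide (0.29, -0.16 to 0.73). Naglu and Idua, which act on heparan sulfate, had -0.15 and 0.04. Idua lies across Slc26a1 and Dgkq on the other strand, which had 3990 to 4895 and 1131 to 1296 normalized counts per library against 266.3 to 297.5 for Idua, so its value is uncertain.

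The 4 sulfatases split. Arsa rose, Galns was lower in every KC-Tie2 library without passing the test, and Ids and Arsb were near 0. Arsa encodes arylsulfatase A, which removes sulfate from the lipid sulfatide. Arsa (ENSMUSG00000022620, mm39 chromosome 15, 89356679 to 89361628, minus strand) had 374.9, 411.2 and 340.2 normalized counts in KC-Tie2 and 251.2, 276.4 and 257.0 in Control libraries. Every KC-Tie2 value was above every Control value, and Arsa rose 1.43-fold (log2 fold change 0.52 ± 0.11, limma adjusted p = 0.0394). Its call was lost without KC-Tie2 replicate 1 (limma adjusted p = 0.142), KC-Tie2 replicate 2 (0.213), Control replicate 1 (0.16) or Control replicate 3 (0.14), and with voom (0.0501). The lncRNA C230037L18Rik overlaps Arsa on the other strand at 21.7 to 43.1 normalized counts.

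Galns encodes the sulfatase that removes 6-sulfate from keratan sulfate and chondroitin 6-sulfate. Galns (ENSMUSG00000015027, mm39 chromosome 8, 123304981 to 123338202, minus strand) had 1719, 1839 and 1892 normalized counts in KC-Tie2 and 2325, 2107 and 2782 in Control libraries. The KC-Tie2 values lay together, and the Control values spread over a wider range above them. The log2 fold change was -0.40 ± 0.09 (limma adjusted p = 0.0684). Galns was called lower without Control replicate 2 (limma adjusted p = 0.0179), with the replicate number as a block (0.023) and with library weights (0.0366).

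Arsb and Ids also act on sulfated glycosaminoglycans. Arsb, which acts on dermatan and chondroitin 4-sulfate, averaged 5381 ± 228 in KC-Tie2 and 5202 ± 353 in Control kidneys (log2 fold change 0.05, 95% interval -0.11 to 0.21), and Ids, the iduronate sulfatase, 1718 ± 67 and 1712 ± 87 (0.01, -0.14 to 0.15). Both had overlapping groups.

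None of the 6 lipid hydrolases and activators was called. Every KC-Tie2 library lay above every Control library at 2 of the 6 (33.3%, against 9.96% of all genes tested). These were the activator proteins, which present lipids to the enzymes. Psap, the precursor of the saposins, had 37310, 40294 and 37966 normalized counts in KC-Tie2 and 34915, 33061 and 34530 in Control libraries (log2 fold change 0.17 ± 0.08, limma adjusted p = 0.302). Gm2a, the GM2 activator, had 7650, 8632 and 8366 in KC-Tie2 and 7235, 6434 and 7261 in Control libraries (0.24 ± 0.08, limma adjusted p = 0.17). KC-Tie2 and Control values were separate for both genes, and neither difference passed the test, except that Gm2a did with quantile normalization (limma adjusted p = 0.0214, up to 0.481 over all alternatives).

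The lipid enzymes themselves overlapped between genotypes. Lipa, lysosomal acid lipase, averaged 4072 ± 155 in KC-Tie2 and 4688 ± 732 in Control kidneys (log2 fold change -0.19, 95% interval -0.42 to 0.04). Control replicate 2 lay at 3872, apart from the other Control libraries at 5289 and 4902, and without it Lipa was called lower (-0.32, limma adjusted p = 0.0468). Asah1, acid ceramidase, and Smpd1, acid sphingomyelinase, had log2 fold changes of 0.05 each, and Ppt1, a palmitoyl-protein thioesterase, -0.10 (-0.25 to 0.04).

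None of the 6 membrane proteins was called, and none had an unadjusted p under 0.05. Lamp1 and Lamp2, the most abundant glycoproteins of the lysosomal membrane, averaged 19756.5 ± 978 in KC-Tie2 and 19110 ± 619 in Control kidneys (Lamp1) and 11740 ± 1006 and 12234 ± 751 (Lamp2). Their log2 fold changes were 0.05 (95% interval -0.12 to 0.21) and -0.06 (-0.25 to 0.12). Both groups overlapped, and both intervals end below 0.45, where that of Lgmn begins. Cd63, a tetraspanin, had 5486, 5915 and 5563 normalized counts in KC-Tie2 and 5504, 4458 and 5104.5 in Control libraries (0.18 ± 0.08, limma adjusted p = 0.345), and its pseudogene Cd63-ps carried 3537 to 4546 per library, so the reads of that pair cannot be told apart with certainty. Lamp1, Ctsa, Ctsz, Ppt1 and Grn also overlap a protein-coding neighbour on the other strand, Ctsl a lncRNA and Manba a pseudogene. Ctns, the cystine exporter, was slightly higher in every KC-Tie2 library (610.7, 711.9 and 624.2, against 551.5, 597.1 and 603.4 in Control; limma adjusted p = 0.461). Scarb2, the receptor that carries glucocerebrosidase, and Mcoln1, a calcium channel, had log2 fold changes of -0.10 and 0.01.

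Neither transcription factor gene was called. Tfeb had 557.4, 548.5 and 530.8 normalized counts in KC-Tie2 and 495.8, 505.4 and 496.5 in Control libraries. These tight groups did not overlap, but the log2 fold change of 0.13 ± 0.08 did not pass the test (limma adjusted p = 0.491). Tfe3 had 691.7, 712.7 and 685.0 in KC-Tie2 and 595.6, 627.7 and 713.0 in Control libraries, with overlap (0.11 ± 0.09, limma adjusted p = 0.587). Grn, whose product progranulin is cut into granulins in lysosomes, averaged 2393 ± 132 and 2431 ± 107 (-0.02, 95% interval -0.17 to 0.13). Activity of TFEB and TFE3 is set mainly by phosphorylation and movement to the nucleus, which transcript counts do not measure.

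**Figure D3:**
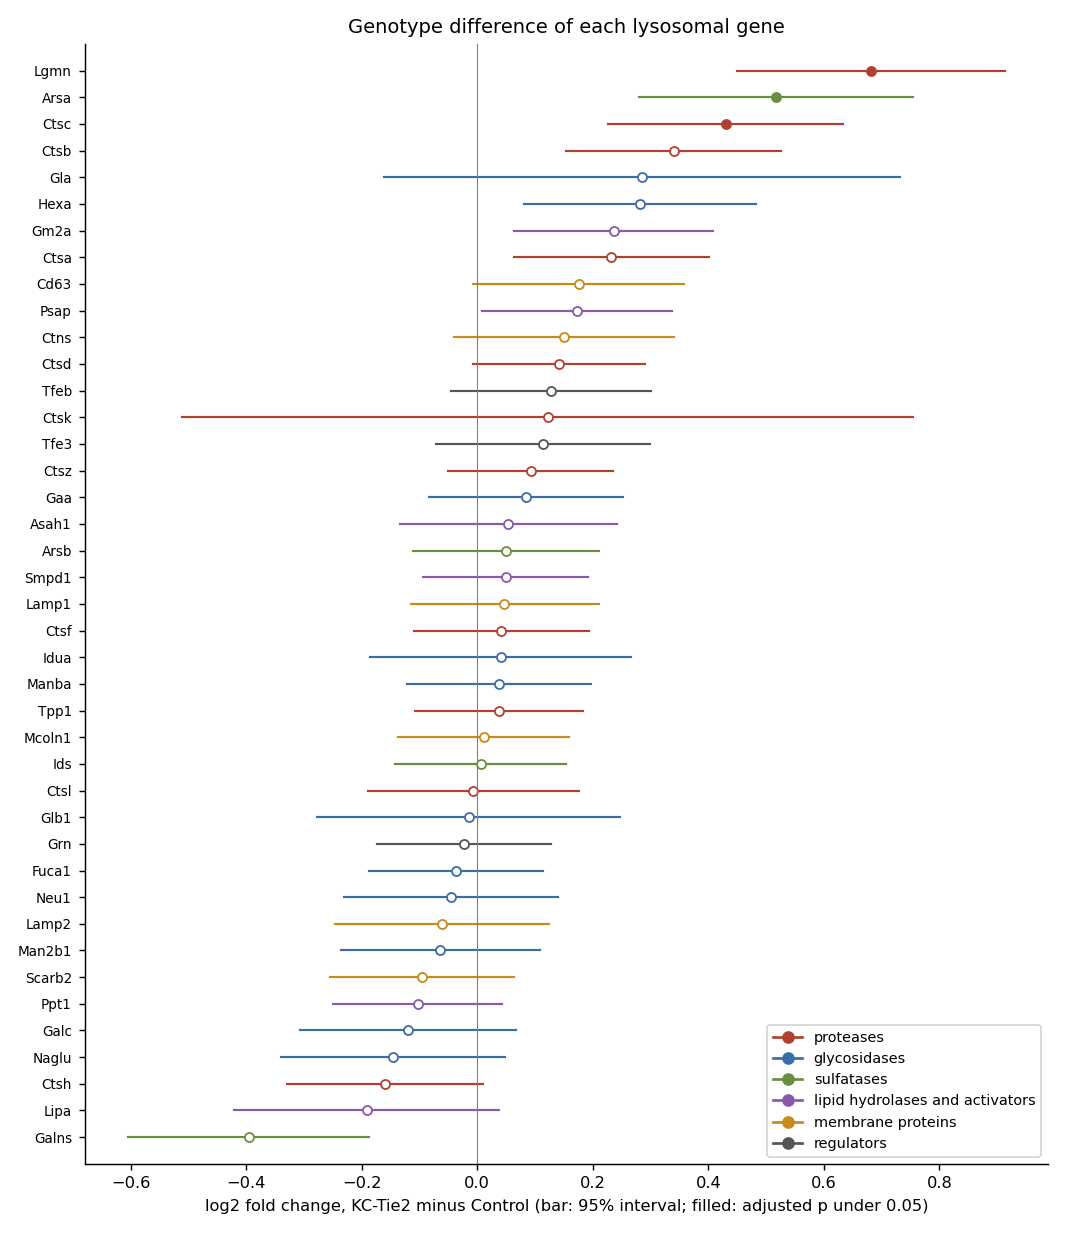
Log2 fold change of each of the 41 genes, KC-Tie2 minus Control, with its 95% interval, coloured by role; filled points passed the limma test. Lgmn at 0.68, Arsa at 0.52 and Ctsc at 0.43 are filled, and Galns at -0.40 is the lowest.

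Per kilobase of annotated exon (GENCODE M21, matched by gene identifier), the level of the 41 genes in Control kidneys ran from 28.3 normalized counts per kb for Ctsk to 12450 for Psap. Psap and Lamp1 were first and second in both genotypes, Lamp1 at 7386 per kb in KC-Tie2 and 7144 in Control. Lgmn stood at 6427 per kb in KC-Tie2 and 3973 in Control kidneys, and Ctsd at 4617 and 4187, so Lgmn ranked above Ctsd in KC-Tie2 and below it in Control. The other risen genes were near the low end: Arsa had 102 per kb in KC-Tie2 and 71.1 in Control, and Ctsc 85.1 and 63.0. Galns had 685 and 907.

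**Figure D4:**
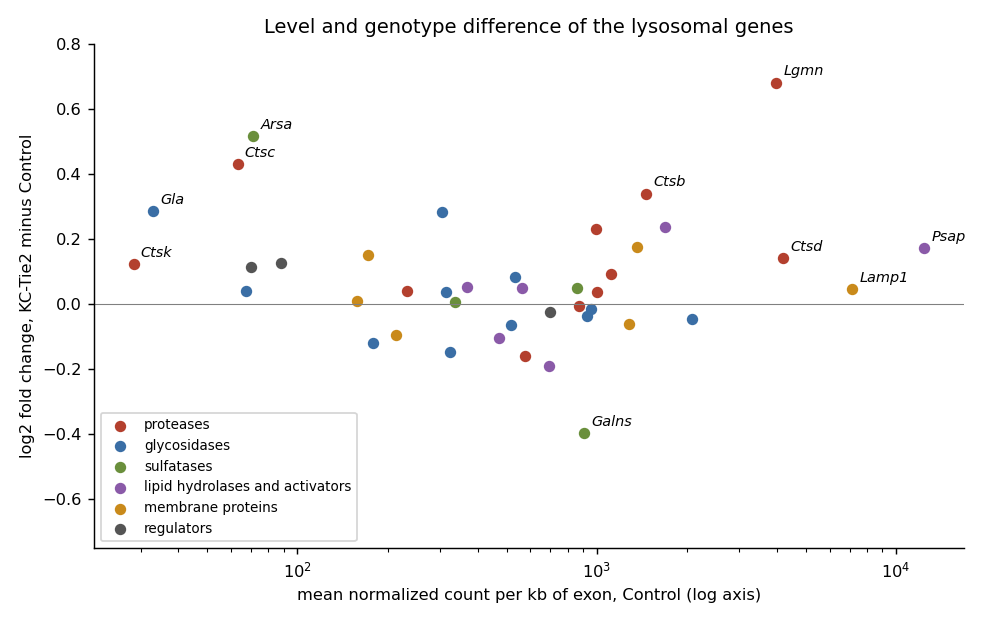
Each point is a lysosomal gene, with its Control level per kb of exon (log axis) against its log2 fold change, coloured by role. Genes above 0.4 are Lgmn at a high level and Arsa and Ctsc at low levels; the most abundant, Psap and Lamp1, lie at 0.17 and 0.05.

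The libraries of a genotype were not evenly spread over these genes. KC-Tie2 replicate 2 was the highest of the KC-Tie2 libraries at 26 of the 41 (63.4%, against 32.9% of all genes tested), and Control replicate 2 the lowest of the Control libraries at 28 (68.3%, against 36.1%). The 41 genes made up 0.8%, 0.834% and 0.755% of all normalized counts in KC-Tie2 libraries and 0.724%, 0.703% and 0.724% in Control libraries. The median over the 41 genes of the difference from the Control mean was 0.02, 0.11 and 0.05 on the log2 scale in KC-Tie2 libraries and 0.03, -0.07 and 0.03 in Control libraries, so the typical gene overlapped.

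**Figure D5:**
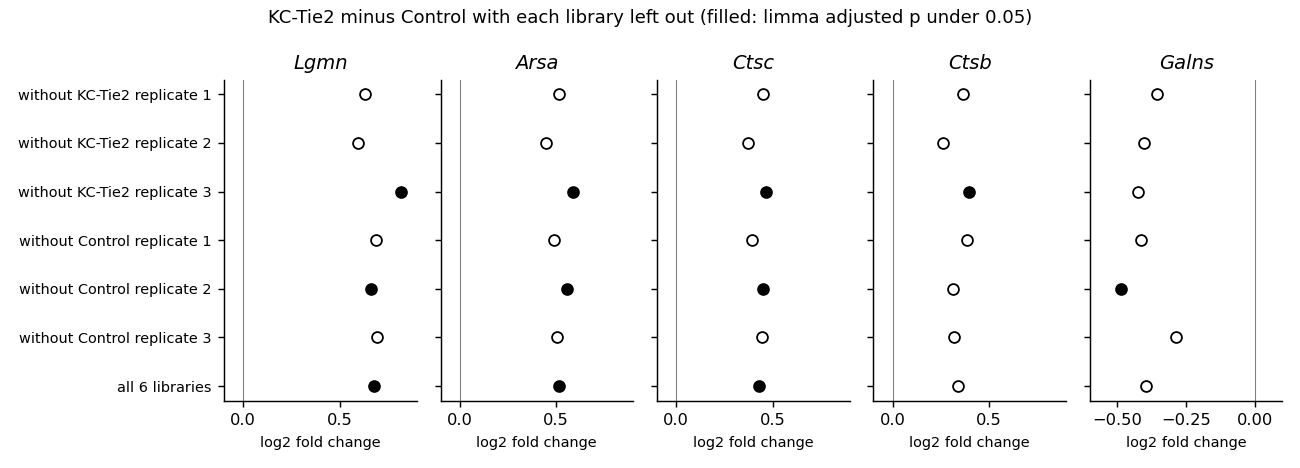
Log2 fold change of Lgmn, Arsa, Ctsc, Ctsb and Galns with each library left out in turn and with all 6 libraries; filled points had a limma adjusted p under 0.05. No estimate changes sign; with a KC-Tie2 or Control library left out, Lgmn, Arsa and Ctsc stay filled only without KC-Tie2 replicate 3 or Control replicate 2.

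In the authors' deposited table, 5 of the 41 genes had a step-up FDR under 0.05, 4 of them higher (Lgmn, Ctsb, Arsa and Ctsc) and 1 lower (Galns), where 1.83% and 2.08% of its 17550 genes were. The FDR in the authors' deposited table was 2.51e-08 for Lgmn, 0.00641 for Ctsb, 0.0091 for Galns, 0.0117 for Arsa and 0.0196 for Ctsc. Ctsb and Galns are thus called in the authors' deposited table and not by limma.

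Other genes of the pathway had few calls, as had all genes tested, of which 0.855% rose and 0.838% fell. At a limma unadjusted p under 0.05, 7.57% of all genes tested were higher and 7.77% lower. Lists this short are therefore likely to hold few calls or none. Of 26 further lysosomal hydrolases in the table, none rose and 1 fell (median log2 fold change 0.03). It was Hyal1, a hyaluronidase, with 283.8, 261.1 and 310.9 normalized counts in KC-Tie2 and 442.4, 434.6 and 386.3 in Control libraries. The groups were apart (log2 fold change -0.56 ± 0.11, limma adjusted p = 0.0275), and the call was lost without KC-Tie2 replicate 1, KC-Tie2 replicate 2, Control replicate 1 or Control replicate 3 (limma adjusted p up to 0.141). Of 21 further proteins of the lysosomal membrane and of transport none was called at an adjusted p (limma unadjusted p under 0.05 at 3 higher and 1 lower). The lowest p there belonged to Cln3, mutated in a juvenile neuronal storage disease, at 429 ± 25.2 in KC-Tie2 and 319 ± 28.1 in Control kidneys (0.43 ± 0.10, limma adjusted p = 0.0649), and to Slc17a5, the sialic acid exporter (-0.27 ± 0.08, limma adjusted p = 0.118).

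Of the genes for the machinery around the lysosome, none was called at a limma adjusted p under 0.05. Among all genes tested, 0.855% rose and 0.838% fell, and at a limma unadjusted p under 0.05 7.57% were higher and 7.77% lower. Of 17 subunits of the V-ATPase, the proton pump that acidifies lysosomes, none was called by limma and 2 had an unadjusted p under 0.05, Atp6v0b (log2 fold change 0.16 ± 0.07) and Atp6v1f (1.11-fold), with a list median of 0.06. Of 10 genes of mannose 6-phosphate sorting none was called by limma (unadjusted p under 0.05 at 3 higher and 2 lower, median 0.10), with Gnptab, a subunit of the enzyme that makes the tag, at 1131 ± 81.1 in KC-Tie2 and 935 ± 79.8 in Control kidneys (limma adjusted p = 0.134) and the sorting adaptor Gga3 at 0.24 (limma adjusted p = 0.196). The cathepsin inhibitors Cst3 and Cstb, cystatins C and B, were higher in every KC-Tie2 library and not called (log2 fold change 0.20 ± 0.08 and 0.15 ± 0.09, limma adjusted p = 0.235 and 0.471). Among 16 genes that control TFEB none was called by limma (unadjusted p under 0.05 at 1 higher and 1 lower, median 0.03), the GTPase gene Rragd having 0.28 ± 0.07 (limma adjusted p = 0.0742) and the TFEB relative Tfec -0.26 ± 0.11 (limma adjusted p = 0.264). Among 24 autophagy genes none was called by limma (unadjusted p under 0.05 at 3 lower, median 0.001), the cargo receptor Sqstm1 having 8176 ± 209 in KC-Tie2 and 9385 ± 420 in Control kidneys (limma adjusted p = 0.193) and Wipi1, a protein of autophagosome formation, -0.23 ± 0.09 (limma adjusted p = 0.246).

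Markers of lysosome-rich cells were measured in the same libraries. In bulk kidney, a change in the number of cells of a type and a change in RNA per cell cannot be told apart. All 17 macrophage markers in the table (of 18 listed) lay above 0, with a median log2 fold change of 0.66 and a range from 0.014 for Ptprc, a gene of all leukocytes, to 1.18 for Fcgr1, an Fc receptor gene, both named after their values were seen. By limma, 10 of the 17 were higher at an unadjusted p under 0.05 (58.8%, against 7.57% of all genes), and at 7 every KC-Tie2 library lay above every Control library (41.2%, background 9.96%). Of these markers 3 rose (17.6%, against 0.855% of all genes tested). They were the complement genes C1qa (253.7 ± 5.8 in KC-Tie2 and 131.7 ± 11.7 in Control, limma adjusted p = 0.00742), C1qb (0.76 ± 0.14, 0.021 by limma) and C1qc (0.77 ± 0.17, 0.0449 by limma). The summed level of the 17 was 3579 to 4708.5 in KC-Tie2 and 2763 to 3406 in Control libraries, lowest in KC-Tie2 replicate 3 and Control replicate 1. Csf1r, with the highest mean counts of the 17, had overlapping groups and was also named after its values were seen. It averaged 1345 ± 97.5 in KC-Tie2 and 1306 ± 244 in Control kidneys (log2 fold change 0.06). Without KC-Tie2 replicate 1, KC-Tie2 replicate 2, Control replicate 1 or Control replicate 3 the calls of C1qb (limma adjusted p up to 0.116) and C1qc (up to 0.228 over all alternatives) were lost, and that of C1qa was kept in all 16 alternatives. C1qc also lost it with a mean of at least 100, with eBayes without robust and with voom.

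Of 10 neutrophil markers 3 were in the table, S100a8, S100a9 and Csf3r. All 3 rose, where 0.855% of all genes tested did. Their summed level was 58.1 to 145.4 in KC-Tie2 and 8.4 to 17.3 in Control libraries, and S100a8 was at 0 in 2 of the Control libraries. S100a8 and S100a9 reached the limit on low values through the KC-Tie2 libraries alone, so these counts give no support of their own. All 3 calls were lost without KC-Tie2 replicate 1, KC-Tie2 replicate 2, Control replicate 1 or Control replicate 3 (limma adjusted p over all alternatives up to 0.22 for S100a8, 0.248 for S100a9 and 0.185 for Csf3r), and that of S100a9 also with voom. The markers Ly6g, Mpo, Elane, Camp, Ltf, Cxcr2 and Retnlg were not among the genes of the table. Their part in the Ctsc result was not tested.

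The 15 proximal tubule markers went the other way as a list, with 13 below 0, a median log2 fold change of -0.22 and no call by limma. At a limma unadjusted p under 0.05, 8 were lower and 1 higher, where 7.77% and 7.57% of all genes were. Their summed level was 489650 to 613197 in KC-Tie2 and 653043 to 763705 in Control libraries. That sum leans on Kap, with the largest difference in mean counts of the 15 (91204.5 ± 24293.7 in KC-Tie2 and 178565.3 ± 35844.1 in Control, limma adjusted p = 0.107). Slc5a12 (log2 fold change 0.28) and Aqp1 (0.06) lay above 0, these and Kap being named after their values were seen. The lowest adjusted p belonged to the transporter genes Slc22a8 (log2 fold change -0.38 ± 0.09, limma adjusted p = 0.0649) and Slc27a2 (-0.41 ± 0.10, limma adjusted p = 0.0684). Of 11 markers of the loop, distal tubule and collecting duct 10 lay above 0 (90.9%, against 50.3% of all genes) and 2 rose (18.2%, against 0.855%). These were Calb1 (12367 ± 1820 in KC-Tie2 and 6809 ± 794 in Control, limma adjusted p = 0.0106) and Scnn1b (0.42 ± 0.09, limma adjusted p = 0.0444). Calb1 was called in all 16 alternatives, and Scnn1b not without KC-Tie2 replicate 1, KC-Tie2 replicate 2, Control replicate 1 or Control replicate 3 (limma adjusted p up to 0.218 over all alternatives), nor with voom or eBayes without robust. None of the 9 fibroblast, 8 podocyte and endothelial or 5 red blood cell markers was called by limma (unadjusted p under 0.05 at 3, all podocyte or endothelial and higher), and of 4 B, plasma and T cell markers in the table Jchain fell (limma adjusted p = 0.0277), a call lost with voom and without KC-Tie2 replicate 1, KC-Tie2 replicate 2, Control replicate 2 or Control replicate 3 (limma adjusted p up to 0.143 over all alternatives). The part of these shifts in the lysosomal values was not tested.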

How the data were processed

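The authors deposited normalized counts, a signal divided by 1 factor per library. Partek 12.5.0, STAR, DESeq2 and build mm39 are named, without order, per the submitters' processing notes. The share of values under 60 that lay within 0.01 of a multiple of the library's step was 68.5% to 70.8%, so whole reads were not recovered. The authors' other deposited table gives a p-value, a step-up FDR, a ratio and a signed fold-change score per gene, per the file headers. Its values were copied, not retested.

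Groups follow the sample titles. Values were tested as log2(value + 1) at 17539 genes whose mean reached 10, with limma 3.58.1 in R 4.3.3 (eBayes with trend and robust, two-sided, Benjamini-Hochberg over all genes tested, threshold 0.05), and the same code was tested on simulated data. The 41 genes and the other lists were chosen with earlier results of these data known. Every listed gene may be named; of other lists, up to 4 called genes, or the 2 with the smallest p. The reported fit did not pair samples by replicate number. Deviations from the group means correlated at 0.178, -0.096 and 0.017 for numbers 1 to 3, and at -0.283 to 0.260 between unlike numbers. With 3 libraries per group, these correlations cannot decide whether the numbers pair the samples. Intervals are 95% intervals of the limma estimate. The 16 alternatives are in the closing section. Exon lengths came from GENCODE M21 (GRCm38) and promoters from RefSeq (GRCm38.p6), while gene positions are those of the deposited table (mm39). Python 3.11.15 with pandas 2.3.3 and matplotlib 3.10.9 drew the figures, and TMM factors were computed from their published formula.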

Additional observations from a re-analysis of the deposited data

How the results depend on the processing

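The count of risen lysosomal genes was 3 in the reported fit and 2 to 4 with other pseudocounts, filters, TMM scaling, voom, library weights, the replicate block or eBayes without robust. It was 5 with quantile normalization, which added Ctsb and Gm2a, and 0 to 4 with each library left out (0 without KC-Tie2 replicate 1, KC-Tie2 replicate 2, Control replicate 1 or Control replicate 3). The count of fallen genes was 0 in the reported fit, 1 (Galns) with the replicate block, 1 (Galns) with library weights, and 0 to 2 with a library left out (2 without Control replicate 2, Galns and Lipa). The cause was not tested. The median log2 fold change of the 41 genes stayed between 0.02 and 0.08. Of 655 values of single genes under the alternatives, 601 kept direction and side of the threshold, 14 lost and 9 gained a call, 31 of uncalled genes changed sign, and 0 of called genes did. Signs were the same in every alternative at 29 genes, and 34 were never called. The replicate block gave 3 risen and 1 fallen gene and changed no other call among the 41. Of all genes tested, 150 were higher with the reported fit, 259 with the replicate block, 263 with library weights and 25 to 311 with a library left out, and 147 were lower with the reported fit, 322 with the replicate block, 286 with library weights and 18 to 371 with a library left out. The low counts over all genes came from the fits in which no lysosomal gene rose. There 44 genes were higher without KC-Tie2 replicate 1, 25 without KC-Tie2 replicate 2, 33 without Control replicate 1 and 35 without Control replicate 3. Without KC-Tie2 replicate 3 there were 311, and without Control replicate 2 there were 230. Ctsk lay under a minimum mean of 100 and was not tested there. The 95% intervals were widest for Ctsk and Gla, and counting error was not separated from the spread between samples.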
